A study of Rattus norvegicus with 12 samples.

Results

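The insulin receptor and the proteins that carry or restrain its signal were examined as 10 genes: Insr, Irs1, Irs2, Grb14, Grb10, Pik3r1, Akt1, Akt2, Foxo1 and Pde3b. Every probe set whose platform annotation names one of these symbols was taken, which gave 20 probe sets for 10 of 14217 named genes, among 31042 probe sets without the array's controls. Each gene is represented by the probe set with the highest mean signal over the 12 arrays, and its other probe sets are given beside it. The 10 representative probe sets were chosen by brightness over all arrays, with no regard to group, and all passed the filter on dim signals, as did 18 of the 20 in all. Grb14 was included because it was known to be low in the restricted group, so its level there is a description and was not tested.

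Insulin binds a receptor tyrosine kinase, which phosphorylates the Irs docking proteins. These bring phosphoinositide 3-kinase to the membrane, and the lipid it makes activates the Akt kinases. In fat cells Akt moves the glucose transporter Slc2a4 (GLUT4) to the cell surface, keeps the transcription factor Foxo1 out of the nucleus and, through the phosphodiesterase Pde3b, lowers cyclic AMP and with it lipolysis. Grb14 and Grb10 are adaptors that bind the activated receptor and restrain it.

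Total RNA of epididymal white adipose tissue from rats aged 24 weeks was hybridised to Affymetrix arrays, 1 array per sample and 4 per group. The AL group were wild Wistar rats fed ad libitum. The CR group were Wistar rats whose energy intake was held at 70% of theirs, starting at an age of 6 weeks. The Tg group were heterozygous dwarf rats that carry an antisense transgene against growth hormone (GH) and were fed ad libitum. All rats received food 30 minutes before the lights went off, and tissue was taken the next morning after they came on. The promoter of the transgene is not given in the labels used here, and the genotype field reads Wistar (-/-) on the Tg arrays too, so the groups rest on titles and source names. The samples are labelled as biological replicates, with no word on whether an array holds 1 rat or a pool.

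Values are log2 of the signal that the authors deposited for each probe set, on which 1 unit is a doubling. Column medians of the deposited signal ran from 222.6 to 239.4, and arrays correlated with one another at 0.922 to 0.986. The background was 34.5 to 44.1 scanner units on 11 arrays and 58.5 on CR3, where 5.71% of probes were blank against 0.324% to 1.88% elsewhere. The tissue carried its adipocyte markers, 10 genes with Slc2a4 among them. Their mean signal was 13.06 to 13.44 in AL, 13.30 to 13.63 in CR and 12.88 to 13.37 in Tg. Transcripts of neighbouring organs stood out on some arrays of each group. The mean signal of 6 spermatid genes was 12.09 on AL1, 13.14 on AL2, 10.89 on CR1 and 12.55 on Tg2, and 6.26 to 7.89 on the others. That of 6 duct epithelium genes was 11.30 on Tg4, 11.09 on CR4, CR2 and Tg2, 10.55 on AL3 and 8.96 on Tg3, and 7.10 to 7.79 on the others. The 1 caput epididymis gene measured was at 13.84 on CR4, and 5 exocrine pancreas genes averaged 13.20 on Tg1. A code in the sample descriptions is common to each group and not shared with the others. Should it stand for a working day, day and group cannot be told apart.

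Across 23281 probe sets, limma with Benjamini-Hochberg adjustment called 338 (1.45%) between CR and AL at an adjusted p under 0.05, 148 of them higher and 190 lower in CR. Between CR and Tg it called 291 (1.25%), 171 higher and 120 lower in CR. Between Tg and AL it called 0, with 1385 (5.95%) at an unadjusted p under 0.05. With quantile normalization the splits were 181 higher and 144 lower for CR against AL, and 230 higher and 102 lower for CR against Tg.

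Grb14 was the member with the widest separation between groups. Its signal on AL1 to AL4 was 11.08, 10.79, 11.23 and 11.002. On CR1 to CR4 it was 9.56, 9.71, 9.68 and 9.64, and on Tg1 to Tg4 it was 10.76, 10.07, 10.70 and 10.55. The CR arrays were all below the Tg arrays, and the Tg arrays all below the AL arrays, with Tg1 just under AL2. In the deposited linear units these signals were 1767 to 2407 in AL, 756.3 to 834.7 in CR and 1075 to 1737 in Tg.

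**Figure D1:**
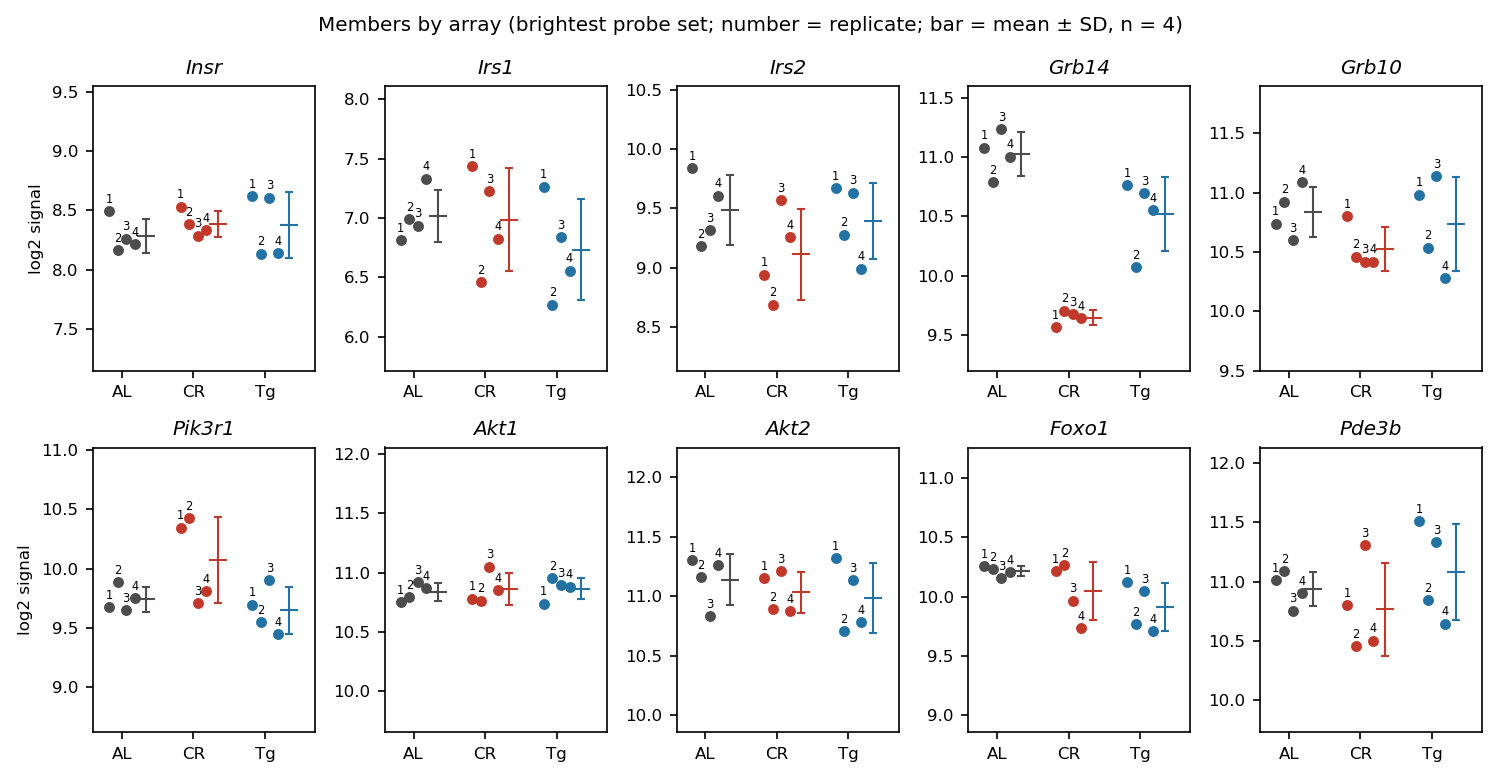
Signal of the 10 genes on each array (log2, representative probe set), with a point for each array numbered by replicate and a bar for the mean ± SD of 4 arrays; every panel spans the same number of log2 units. Grb14 is lowest on the 4 CR arrays (9.56 to 9.71) and highest on the 4 AL arrays (10.79 to 11.23), while in the other panels the CR arrays overlap both other groups.

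The group means of Grb14 were 11.02 ± 0.19 in AL, 9.65 ± 0.062 in CR and 10.52 ± 0.31 in Tg (SD, n = 4). CR was 2.60-fold lower than AL, a log2 difference of -1.38 with a standard error (SE) of 0.14, and 1.83-fold lower than Tg, a difference of -0.87. Both differences include the values for which the gene was chosen and carry no test. Every CR array was below every AL array for 6.74% of named genes, and below every Tg array for 6.49%. Fitted in 24 other ways, the first ranged from -1.46 to -1.31 and the second from -1.02 to -0.79.

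The difference between Tg and AL was tested as well. It shares the AL arrays with the difference for which Grb14 was chosen, so the test is not independent of that choice. Tg was 1.42-fold lower, a log2 difference of -0.50 (SE 0.14, 95% interval -0.81 to -0.20). It had an unadjusted p of 0.00384 and an adjusted p of 0.62 in limma and did not pass. In the 24 alternatives it lay between -0.59 and -0.35, the latter without Tg2, with adjusted p from 0.222 to 1. Among all named genes, 2.22% had every Tg array below every AL array.

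The 11 probes of the Grb14 probe set (1368618_at) gave the same order. Each probe had a lower mean in CR than in AL, with log2 differences from -2.09 to -0.67 and a median of -1.42, and 10 of the 11 had no overlap between the groups. All 11 were also lower in Tg than in AL, with a median of -0.48, 3 of them without overlap. CR set against Tg had all 11 lower, 8 without overlap, with a median of -0.90. The brightest probe, at 12.41 in AL and 11.73 in CR, had the smallest difference. On each array 0 of the 11 lay above the saturation level that the authors deposited. Here and for the genes below, the probes of a set were read on the same arrays and are not replicates.

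The stretch before the start site of Grb14 is shown because this gene separated the groups most, and that of Insr because it holds the one FoxO binding motif found among the members. Both are the 250 bases upstream of the start site in RefSeq (rat assembly GRCr8), read 5′ to 3′ on the gene's strand, here the minus strand, at chr3:70091922-70092171 for Grb14 and chr12:6128804-6129053 for Insr. Capitals mark the GC box (GGGCGG or its reverse complement) in Grb14 and the FoxO motif (GTAAACA or its reverse complement) in Insr.
Grb14: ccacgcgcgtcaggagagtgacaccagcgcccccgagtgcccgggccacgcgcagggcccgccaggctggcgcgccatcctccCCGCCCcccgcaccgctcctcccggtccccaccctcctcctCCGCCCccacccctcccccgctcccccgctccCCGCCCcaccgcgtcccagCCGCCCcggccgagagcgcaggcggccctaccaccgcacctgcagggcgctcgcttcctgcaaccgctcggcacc
Insr: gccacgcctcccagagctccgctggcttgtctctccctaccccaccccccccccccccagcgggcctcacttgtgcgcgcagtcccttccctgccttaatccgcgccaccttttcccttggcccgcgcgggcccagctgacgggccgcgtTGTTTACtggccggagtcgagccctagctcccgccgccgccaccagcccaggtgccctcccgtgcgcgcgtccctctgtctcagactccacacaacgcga
RefSeq windows were matched for 8 of the 10 members, Irs2 and Pde3b being named only. The FoxO motif was present in 1 of these 8, Insr, with its first base at -100, and in 3.21% of 33469 windows of the same length. The GC box, the site of Sp1, was present in 4 of 8 (Irs1, Grb14, Grb10 and Pik3r1) and in 30.5% of all windows. Grb14 held 4 copies and a GC content of 80.0%, against a mean of 52.2% over all windows. The E-box CACGTG and the sterol element TCACNCCAC were found in 0 of 8, against 5.59% and 0.974% of all windows. Both strands were searched, and a match in letters is a description of the window.

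Insr, the insulin receptor itself, was measured by 2 probe sets that did not give the same picture. On the brighter (1392043_at) the signal was 8.50, 8.16, 8.26 and 8.21 on AL1 to AL4, 8.53, 8.38, 8.29 and 8.33 on CR1 to CR4, and 8.62, 8.13, 8.61 and 8.14 on Tg1 to Tg4. The 3 groups overlapped, and CR differed from AL by 0.10 (SE 0.13, 95% interval -0.18 to 0.39, adjusted p = 0.723). On the dimmer (1369051_at) AL held 7.63, 7.40, 7.48 and 7.44, CR 7.70, 7.73, 8.35 and 7.68, and Tg 7.65, 7.21, 7.74 and 7.36. There every CR array lay above every AL array, with CR3, the array of highest background, far above the rest. The difference of 0.38 (95% interval 0.020 to 0.73) had an adjusted p of 0.273, in a comparison where 4.3% of probe sets had every CR array above every AL array. Tg differed from AL by 0.092 on the brighter probe set and by 0.0018 on the dimmer (adjusted p = 0.88 and 0.998).

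Irs1 and Irs2 dock on the receptor and recruit phosphoinositide 3-kinase. Irs1 was dim, with 6.81, 6.99, 6.94 and 7.33 on AL1 to AL4, 7.44, 6.46, 7.23 and 6.83 on CR1 to CR4, and 7.26, 6.27, 6.84 and 6.56 on Tg1 to Tg4. The CR arrays spread to both sides of the AL range, and the Tg arrays ran from below it to just under its top. CR differed from AL by -0.031 (SE 0.25, 95% interval -0.57 to 0.51, adjusted p = 0.96) and Tg from AL by -0.28 (adjusted p = 0.832).

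Irs2, whose messenger FoxO factors raise in liver, had 9.84, 9.18, 9.32 and 9.61 on AL1 to AL4 and 8.94, 8.69, 9.57 and 9.26 on CR1 to CR4. On Tg1 to Tg4 it had 9.67, 9.28, 9.63 and 8.99. CR1 and CR2 were the 2 lowest of the 12 arrays, but CR3 and CR4 lay within the AL range. The difference of -0.37 between CR and AL (SE 0.21, 95% interval -0.84 to 0.097) did not pass, at an adjusted p of 0.413. All 11 Irs2 probes had a lower mean in CR than in AL, with a median difference of -0.31, while for Tg against AL 5 were lower and 6 higher.

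Grb10, the close relative of Grb14, overlapped between the 3 groups. Its brightest probe set (1371517_at) was at 10.74, 10.92, 10.60 and 11.09 on AL1 to AL4, 10.80, 10.46, 10.42 and 10.42 on CR1 to CR4, and 10.98, 10.53, 11.14 and 10.28 on Tg1 to Tg4. CR2, CR3 and CR4 lay close together below all AL arrays, CR1 lay inside the AL range, and Tg held both the highest and the lowest of the 12. CR differed from AL by -0.31 (SE 0.18, 95% interval -0.71 to 0.083, adjusted p = 0.414), with all 11 probes lower. The other 2 Grb10 probe sets differed by -0.14 and -0.048 (adjusted p = 0.722 and 0.913).

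Pik3r1 encodes the regulatory subunit p85-alpha, through which phosphoinositide 3-kinase binds the Irs proteins. It had 9.67, 9.89, 9.65 and 9.75 on AL1 to AL4, 10.34, 10.42, 9.71 and 9.81 on CR1 to CR4, and 9.70, 9.55, 9.90 and 9.45 on Tg1 to Tg4. CR1 and CR2 were the highest of the 12 arrays, and CR3 and CR4 lay among the AL arrays. CR was above AL by 0.33 (SE 0.16, 95% interval -0.022 to 0.68, adjusted p = 0.329) and above Tg by 0.42 (95% interval 0.070 to 0.77, adjusted p = 0.214), and neither passed. All 11 probes had a higher mean in CR than in either other group, by medians of 0.29 and 0.50. These probes share the same arrays, so their agreement adds no replicates.

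Akt1 and Akt2 are the kinases at the centre of the pathway, Akt2 being the form most tied to glucose uptake. Akt1 (1383126_at) was the steadiest member, with 10.75, 10.79, 10.92 and 10.87 in AL, 10.78, 10.76, 11.05 and 10.86 in CR, and 10.74, 10.95, 10.89 and 10.88 in Tg. Its differences were 0.028 for CR against AL (95% interval -0.14 to 0.20), 0.032 for Tg against AL and -0.0033 for CR against Tg, with adjusted p from 0.878 to 0.991. The interval leaves room for a change of up to 0.20 log2 units. Its other 2 probe sets differed by 0.0094 and 0.26 between CR and AL (adjusted p = 0.957 and 0.359).

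Akt2 (1388765_at) had 11.31, 11.16, 10.83 and 11.26 on AL1 to AL4, 11.15, 10.89, 11.21 and 10.87 on CR1 to CR4, and 11.32, 10.70, 11.14 and 10.78 on Tg1 to Tg4. Each group held high and low arrays, the low ones being AL3, CR2, CR4, Tg2 and Tg4. CR differed from AL by -0.11 (SE 0.15, 95% interval -0.44 to 0.22, adjusted p = 0.747), and the 2 other tested probe sets by 0.12 and 0.056. The last Akt2 probe set and the last of Foxo1 were too dim to be tested and differed by 0.31 and 0.24.

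Foxo1, the transcription factor that Akt restrains, held within 10.16 to 10.25 on the AL arrays. On CR1 to CR4 it was 10.21, 10.26, 9.96 and 9.73, and on Tg1 to Tg4 it was 10.12, 9.77, 10.05 and 9.71. All Tg arrays lay below all AL arrays, as for 2.22% of named genes, whereas CR1 and CR2 lay among the AL arrays and CR3 and CR4 below them. Tg was 1.23-fold lower than AL (log2 difference -0.30, SE 0.12, 95% interval -0.57 to -0.030), with an unadjusted p of 0.0323 and an adjusted p of 0.797 in limma, so it did not pass. All 11 probes were lower in Tg, 3 of them without overlap, and the second Foxo1 probe set (1377502_at) differed by -0.10 (adjusted p = 0.85). Between CR and AL Foxo1 differed by -0.17 (adjusted p = 0.525).

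Pde3b, the phosphodiesterase through which insulin restrains lipolysis, had 11.01, 11.09, 10.76 and 10.90 on AL1 to AL4, 10.80, 10.45, 11.31 and 10.50 on CR1 to CR4, and 11.51, 10.84, 11.33 and 10.65 on Tg1 to Tg4. The AL arrays lay close together, and the CR and Tg arrays spread to both sides of them. CR differed from AL by -0.17 (SE 0.21, 95% interval -0.64 to 0.30, adjusted p = 0.709), Tg from AL by 0.14 (adjusted p = 0.884) and CR from Tg by -0.32 (adjusted p = 0.49). With 1 array left out, the first ranged from -0.35 (without CR3) to -0.069 (without CR2), the second from 0.0018 (without Tg1) to 0.29 (without Tg4), and the third from -0.50 to -0.18. All 11 probes were lower in CR than in AL and higher in Tg than in AL.

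Counted together without Grb14, by representative probe set, 0 of 9 members rose and 0 fell between CR and AL in limma. Of these 9, 0 had an unadjusted p under 0.05, against 18.3% of named genes. Of all 12111 named genes tested, 1.73% were called in that comparison. Of the 9 members 3 were higher and 6 lower in CR, with a median log2 difference of -0.11 against -0.012 over all named genes. Between Tg and AL 0 of 10 members were called, as were 0% of named genes, while Grb14 and Foxo1 had an unadjusted p under 0.05, which 4.98% of named genes had. The median of the 10 was -0.099 against -0.0080 over all named genes. The 10 adipocyte markers were all lower in Tg than in AL as well, with a median of -0.099 and 0 called. Between CR and Tg 0 of 9 members were called (1.41% of named genes), and the median was 0.0088 against -0.023. Pik3r1 alone had an unadjusted p under 0.05 there, which 17.1% of named genes had. Among the dimmer probe sets, Insr 1369051_at (0.37) and Akt1 1375178_at (0.34) had one too (adjusted p = 0.272 and 0.231). That Insr probe set also had one between CR and AL. These 3 comparisons share arrays in pairs. In all 24 alternatives 0 members were called in each comparison, Grb14 again not being counted in those with CR, though the sizes moved. With 1 array left out, the differences between CR and AL ranged from -0.52 to -0.23 for Irs2, 0.21 to 0.45 for Pik3r1, -0.21 to -0.053 for Akt2 and -0.24 to -0.066 for Foxo1.

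**Figure D2:**
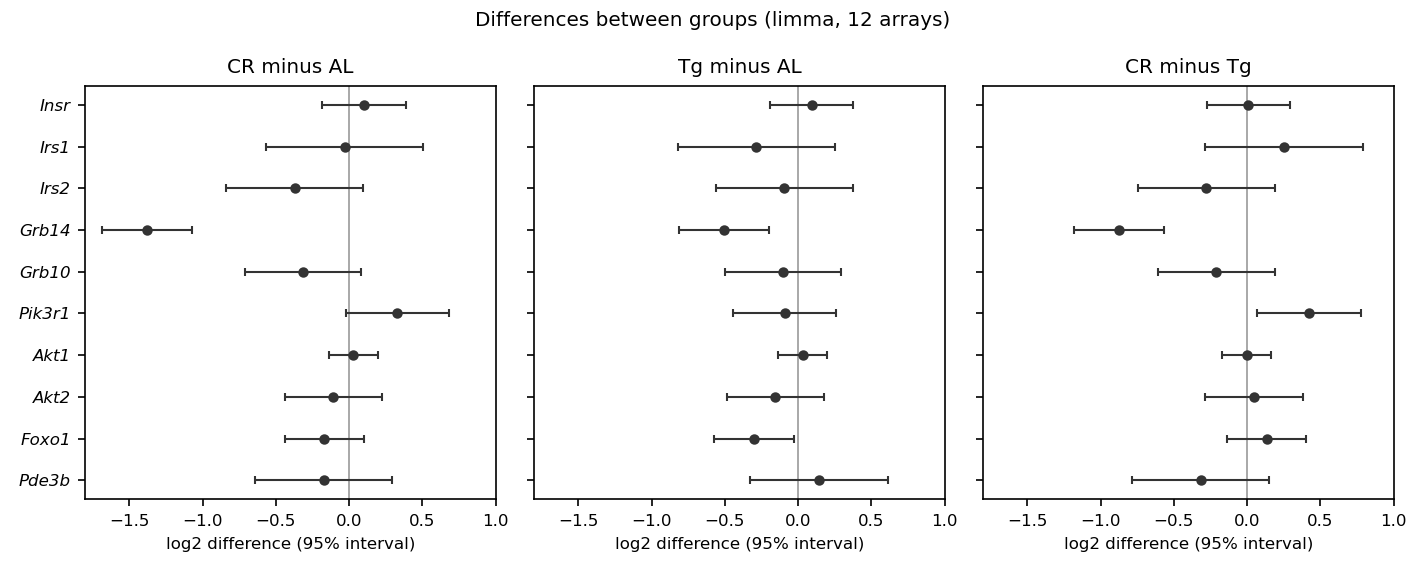
Log2 difference in signal between groups for the 10 genes, with 95% intervals from the fit over 12 arrays. The Grb14 differences with CR (CR minus AL -1.38) are descriptions with no test, since CR values chose the gene. Before adjustment, the intervals of Grb14 (-0.50) and Foxo1 in Tg minus AL and of Pik3r1 in CR minus Tg leave out 0.

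Signals of some members were low on the arrays with high duct epithelium signal. Over the 12 arrays and whatever their group, the 6 arrays with the lowest Akt2 signal were the 6 with the highest duct epithelium signal. For Irs1, Grb10 and Pde3b this held for 5 of the 6 lowest arrays, for Irs2, Foxo1 and Grb14 for 4, for Insr and Pik3r1 for 3, and for Akt1 for 2. The lowest arrays of Grb14 included all 4 of CR, and in deviations from the group means it correlated with the duct epithelium signal at -0.105 over 12 arrays, given without a test. The same correlation was -0.775 with the spermatid signal, the farthest from 0 of the marker lists, and 0.448 with the exocrine pancreas signal. The exocrine pancreas signal was high on Tg1 alone, at 13.20 against 6.81 to 7.39 on the other arrays. Tg1 also had the highest Grb14 signal of Tg. Adding the spermatid and duct epithelium signals to the fit brought the SE of Akt2 from 0.15 to 0.064 and its difference between CR and AL from -0.11 to -0.011 (adjusted p = 0.936). Pde3b then differed by -0.41 between CR and Tg (SE 0.11, adjusted p = 0.0551), against -0.32 without them. Grb14 was then 1.46 lower on CR than on AL arrays (log2 difference -1.46), and Tg differed from AL by -0.57 (adjusted p = 0.222). Fewer fat cells on an array and less RNA of a gene per cell cannot be told apart in such tissue samples.

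**Figure D3:**
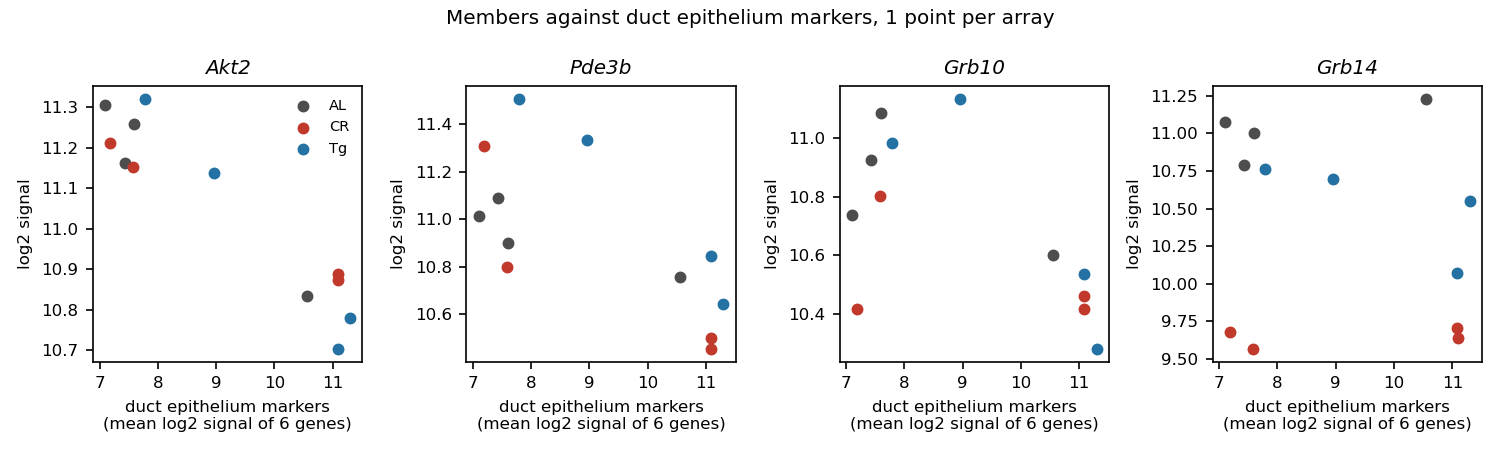
Signal of Akt2, Pde3b, Grb10 and Grb14 (log2, vertical axes) against the mean log2 signal of 6 duct epithelium genes, with a point for each of the 12 arrays. Akt2 lies at 10.70 to 10.89 on the 5 arrays with a duct signal over 10 and at 11.14 to 11.32 on the other 7, while Grb14 is ordered by group at low and at high duct signal.

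Within each group the lowest Grb14 array was one of the 4 with high spermatid signal, namely AL2, CR1 and Tg2. The other array with high spermatid signal, AL1, had the second highest Grb14 signal of its group. Macrophage markers were lower in CR alongside Grb14: all 8 were lower than in AL and 6 of 8 fell, against 1.06% of named genes, with a median difference of -0.64. Their mean signal was 10.14 to 10.42 in AL, 9.58 to 9.75 in CR and 10.01 to 10.21 in Tg, and all 8 genes passed the filter on dim signals. Against Tg, 4 of 8 fell in CR, against 0.586% of named genes, and between Tg and AL 0 of 8. The lists were chosen with earlier results of these data known, so these counts are a description. Of 7 fibroblast and matrix markers all 7 were lower in CR than in AL (median -0.21) and than in Tg (median -0.32), with 0 called. Of 5 endothelial markers 4 were lower in CR than in AL and 1 higher (median -0.35), with 0 called. Of 10 adipocyte markers 7 were higher in CR than in AL and 3 lower, and 1 was called, Slc2a4, which rose. Slc2a4 is also counted among the pathway's effectors below. All 4 smooth muscle markers were higher in CR than in AL. The part of these markers in the Grb14 values was not tested.

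The genes whose pattern over the 12 arrays was most like that of Grb14, by Pearson correlation among named genes, were Cd68 (r = 0.947), Dmbt1 (0.942), Slc8a1 (0.940), Elf1 (0.924) and Ptprc (0.923). Cd68, a lysosomal glycoprotein abundant in macrophages, was at 10.47 to 10.88 in AL, 10.02 to 10.12 in CR and 10.43 to 10.57 in Tg. Ptprc, the leukocyte antigen CD45, was at 10.23 to 10.43, 9.31 to 9.77 and 9.99 to 10.13. Both are on the macrophage list, and the arrays of a group share their level, so these correlations carry the group differences. In deviations from the group means the most alike were Gtpbp1 (r = 0.904), Kat6a (0.891), Rig1 (0.884), Mettl15 (0.884) and Mtrf1 (0.883), none of them among the first 5.

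Around the members, 86 further genes of the pathway were listed, of which 75 were measured with 1 symbol and 74 tested. Between CR and AL 1 rose and 3 fell, where 0.669% of all named genes rose and 1.06% fell, and 16 had an unadjusted p under 0.05, against 18.3%. The median difference was 0.0086. Between Tg and AL 0 were called and 5 had an unadjusted p under 0.05, against 4.98%. Against Tg, CR had 2 that rose and 2 that fell, where 0.826% and 0.586% of named genes did, and 12 had an unadjusted p under 0.05, against 17.1%. The listed genes without such a value were not analysed here.

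Slc2a4, the insulin-responsive glucose transporter, was 10.44, 9.89, 10.05 and 9.96 on AL1 to AL4, 11.50, 11.27, 11.56 and 10.66 on CR1 to CR4, and 10.12, 9.91, 10.30 and 9.62 on Tg1 to Tg4. Every CR array lay above every array of the other groups, with CR4, which carried caput epididymis transcripts, the lowest of CR. Of all probe sets, 4.3% had every CR array above every AL array. It rose 2.24-fold in CR against AL (log2 difference 1.16, SE 0.21, adjusted p = 0.0278) and by 1.26 against Tg (adjusted p = 0.0192). The calls were lost in 8 and 6 of 24 alternatives. Of the other effectors, Tbc1d4 (AS160, which Akt phosphorylates to release GLUT4 vesicles) was higher in CR by 0.48, Rheb by 0.20 and Foxo3 by 0.25, and none of these passed (adjusted p = 0.192, 0.228 and 0.246). They are named after their values were seen.

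Among the FoxO target genes, 2 of 14 fell and 0 rose between CR and AL, against 1.06% and 0.669% of named genes. Of these 14, 6 had an unadjusted p under 0.05, against 18.3% of named genes. Against Tg, 1 rose and 2 fell in CR, where 0.826% and 0.586% of named genes did. In that comparison 8 of 14 had an unadjusted p under 0.05, against 17.1%. The list was chosen with earlier results of these data known, so these counts are a description and no test of the list. Pdk4, which inactivates pyruvate dehydrogenase, was 10.31, 9.38, 9.47 and 9.61 in AL, 8.62, 8.46, 8.46 and 8.17 in CR, and 10.17, 9.46, 10.13 and 8.93 in Tg. All CR arrays lay below all others. Of named genes, 6.74% had every CR array below every AL array and 6.49% below every Tg array. It fell by 1.26 on the log2 scale against AL (SE 0.27, adjusted p = 0.0485), a call lost in 19 of 24 alternatives, and was at -1.25 against Tg (adjusted p = 0.0551, and 0.0425 with the replicate number as a block). Ccng2, an atypical cyclin, fell by 0.42 against both AL and Tg (adjusted p = 0.0444 and 0.0463), and each call was lost in 17 of 24 alternatives. With the block its adjusted p was 0.0926 and 0.102. Pck1, which runs glyceroneogenesis in fat, had the largest difference of the list, -1.33, but did not pass (adjusted p = 0.111), with CR arrays from 11.27 to 13.73; it is named after its values were seen.

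Txnip, which restrains glucose uptake, was 14.10, 13.88, 14.09 and 14.06 in AL, 13.44, 13.53, 13.82 and 13.82 in CR, and 14.18, 14.35, 14.34 and 14.005 in Tg. CR lay below both groups, with CR3 and CR4 close to AL2. Such a separation held for 6.74% of named genes against AL and for 6.49% against Tg. It fell by 0.56 against Tg (SE 0.11, adjusted p = 0.0384), a call lost in 13 of 24 alternatives and, with the replicate block, at an adjusted p of 0.0761. Against AL it was at -0.38 (adjusted p = 0.121). Sesn3, a sestrin, was lower on the Tg arrays, at 7.45, 7.44, 7.61 and 7.43 in AL, 7.55, 7.48, 7.77 and 7.50 in CR, and 7.07, 6.97, 6.97 and 7.01 in Tg. All Tg arrays lay below all others. Of named genes, 2.22% had every Tg array below every AL array. CR was above Tg by 0.57 (SE 0.089, adjusted p = 0.0158), a call lost in 6 of 23 alternatives. Tg differed from AL by -0.48, with the smallest unadjusted p of the 74 genes in that comparison, 0.000185, but an adjusted p of 0.331 in limma. Sod2, on the same list, also had all Tg arrays below all others. Its difference was -0.16 for Tg against AL (adjusted p = 0.82) and 0.25 for CR against Tg (adjusted p = 0.101), and neither passed.

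**Figure D4:**
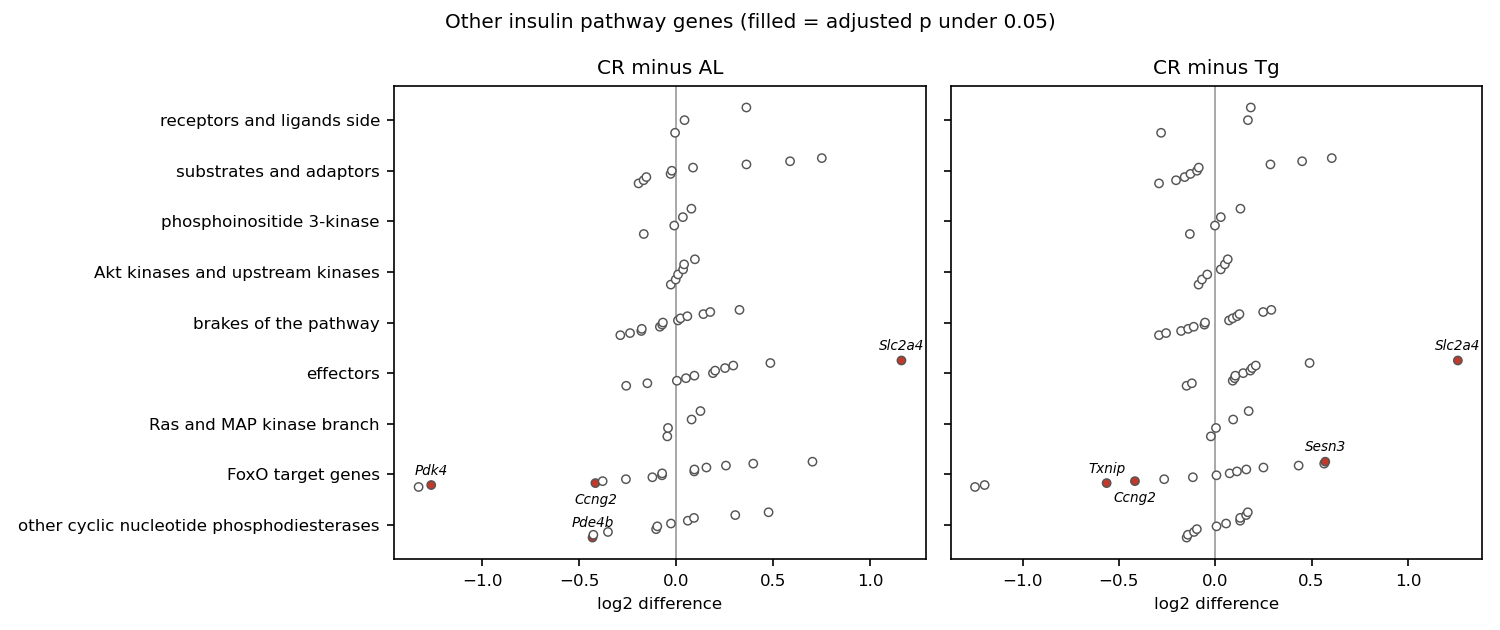
Log2 difference in signal of the tested pathway genes other than the 10 members, by role, for CR minus AL and CR minus Tg, with filled points where the adjusted p was under 0.05. Slc2a4 is the filled point at 1.16 and 1.26, while the receptor, adaptor, phosphoinositide 3-kinase, Akt, brake and Ras groups hold no filled point.

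Of 10 further cyclic nucleotide phosphodiesterases tested, Pde4b fell in CR against AL by 0.43 (SE 0.085, adjusted p = 0.0385), from 9.45 to 9.71 on the AL arrays to 9.02 to 9.30 on the CR arrays. This call was lost in 13 of 24 alternatives. On the Tg arrays Pde4b was at 9.15 to 9.39, at -0.32 against AL without passing (adjusted p = 0.574). The rest of the list was not called in any comparison, with Pde2a at -0.35 and Pde5a at 0.30 between CR and AL (adjusted p = 0.30 and 0.319).

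In the remaining roles 0 genes were called between CR and AL in limma, against 1.73% of named genes. An unadjusted p under 0.05 was held by 18.3% of named genes there. Of 3 further receptors 0 had an unadjusted p under 0.05, with Igf1r, the receptor of IGF-1, at 0.36 and Insrr at 0.042 (adjusted p = 0.587 and 0.93). Of 9 substrates and adaptors 2 had one, the ubiquitin ligase Cbl at -0.19 and the adaptor Shc1 at 0.36 (adjusted p = 0.234 and 0.248). Of 4 other phosphoinositide 3-kinase subunits 1 had one, the catalytic subunit Pik3cd at -0.17 (adjusted p = 0.258), with Pik3r2 next at 0.034 (adjusted p = 0.799). The 6 kinases around Akt had 0, with Rptor, the mTORC1 scaffold, at 0.096 and Mlst8 at 0.040. Of 13 brakes 2 had one, Tsc1, which restrains mTORC1, at -0.24 and the Akt phosphatase Phlpp1 at -0.29 (adjusted p = 0.134 and 0.257). Both had every CR array below every AL array, as did 6.74% of named genes. Tsc1 differed between CR and Tg by -0.29 (adjusted p = 0.0815). The Ras and MAP kinase branch had 0 of 4, with Ptpn11 at 0.12 and Map2k2 at 0.079.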

How the data were processed

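The authors deposited a linear intensity for each probe set and array in the series matrix. They also deposited, in a file per array, a z-score (a score) for each perfect-match probe and, per the file headers, the array's background, mean and SD on a log10 scale. Undoing the z-score gave whole numbers, within 0.01, for 100% of values under 5000. The software and the probe-set summary behind the series matrix are not given in the sources used here. Its log10 correlated with the mean z-score at 0.987 to 0.995.

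Here the series matrix was put on the log2 scale with no further normalization. The 57 control probe sets were left out, and those with a mean signal over the 25th percentile (6.61) entered the tests. The comparisons used R 4.3.3 and the package limma 3.58.1 (lmFit and a trended eBayes), with 1 mean per group, two-sided tests and Benjamini-Hochberg adjustment in each comparison. The median SE between CR and AL was 0.13. The number of arrays limits the precision, and p-values measure the spread between these samples. The fit was tested on simulated data. Gene names come from the platform annotation; 20826 probe sets had 1 symbol, 436 had several and 9780 were unnamed here, and 20758 matched the RefSeq gene table (GRCr8).

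All 10 members are named whatever their values. Of each pathway list, called genes are named, or the 2 with the smallest p, together with the 5 genes most like Grb14 on each measure. The members and lists were chosen with earlier results of these data known. CR and Tg replicates that share a number also shared their deviations from the group means (r = 0.519, 0.32, 0.468 and 0.62), so a fit with the number as a replicate block was also made; between CR and AL these correlations were 0.492, -0.319, -0.494 and -0.206. Other scalings, filters, fits and sets of arrays were tried too.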

Additional observations from a re-analysis of the deposited data

Results flagged for a closer look

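In 96 groups of 4 arrays, each a probe set or marker signal named in the text, a lone array far from the other 3 was looked for. It was found in 9. The limit used is Dixon's 95% critical value, which chance passes in about 1 in 20 independent groups, and these groups share the same 12 arrays. Grb10 on CR1 was 10.80, with the other CR arrays at 10.42 to 10.46. The second Insr probe set on CR3 was 8.35, against 7.68 to 7.73 in the rest of CR, on the array with the highest background. The Akt2 probe set 1387353_at on AL3 was 9.99, against 10.37 to 10.39. Sesn3 on AL3 was 7.61, against 7.43 to 7.45.

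The other 5 were marker signals. The spermatid markers were 12.55 on Tg2, against 6.26 to 7.17 in the rest of Tg. The duct epithelium markers were 10.55 on AL3, against 7.10 to 7.60. The caput epididymis gene was 13.84 on CR4, against 6.25 to 7.39, and 6.08 on Tg4, against 6.65 to 6.77. The exocrine pancreas markers were 13.20 on Tg1, against 6.81 to 7.004.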

How the results depend on the processing

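The 12 planned settings and the 12 fits that each left out 1 array called 0 members in every comparison, Grb14 not being counted in those with CR. The cause of each shift below was not tested. Irs1 and Sesn3 had no value with the filter at the 50th percentile, being too dim. Pathway genes other than the members called between CR and AL were 4, and 2 with quantile normalization, 2 with arrays centred on their median, 2 without a filter, 2 without a trend, 0 with the 2 groups alone, 0 to 2 with 1 array left out, and 1 when CR3, CR4 and Tg1 were left out together. Between CR and Tg they were 4, and 2 without a filter, 0 with the 2 groups alone, 7 with the marker scores as covariates, 0 to 3 with 1 array left out, and 1 when those 3 arrays were. With the replicate block 3 were called in each of these comparisons, Ccng2 losing both calls, Txnip losing the one against Tg and Pdk4 gaining that one, and the block changed no other call among the members and these genes. With the marker scores Eif4ebp1 and Gab1 were added between CR and AL, and Eif4ebp1, Sod2 and Pdk4 against Tg.

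Small differences changed sign without passing. Between CR and AL, Irs1 was 0.081 by median polish of the probes, 0.053 with the marker scores and -0.18 to 0.15 with 1 array left out. Akt1 was -0.023 by median polish, -0.062 without those 3 arrays, and -0.034 to 0.062 with 1 array left out. Foxo1 was 0.026 without those 3 arrays and 0.031 as the mean of its probe sets, as was Akt2 at 0.094. Between Tg and AL, Akt1 was -0.0057 by median polish and -0.0098 as the mean of its probe sets. With the marker scores Irs2 was 0.037, Grb10 0.038 and Akt2 0.011, and with 1 array left out Irs2 ranged from -0.20 to 0.041 and Grb10 from -0.24 to 0.047. Between CR and Tg, Akt1 was 0.037 with quantile normalization, 0.11 as the mean of its probe sets and -0.066 to 0.030 with 1 array left out. Insr was -0.0050 with arrays centred on their median, -0.023 with the marker scores and -0.072 to 0.091 with 1 array left out. Akt2 was -0.022 with the marker scores and -0.047 to 0.16 with 1 array left out.

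Of all probe sets, 338 were called between CR and AL. This was 203 without a filter, 221 without a trend, 150 with the block, 81 without those 3 arrays, 52 with the 2 groups alone, 1534 with the marker scores and 44 (without AL4) to 283 (without CR4) with 1 array left out. The 291 between CR and Tg became 179 with arrays centred on their median, 189 without a trend, 116 with the block, 75 without those 3 arrays, 20 with the 2 groups alone, 1202 with the marker scores and 41 (without Tg2) to 468 (without CR4) with 1 array left out. By gene means rather than probe sets, 218 and 152 were called.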
